A study of Mus musculus with 9 samples.

Results

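The BCL2 family of proteins sets the threshold of mitochondrial apoptosis. Survival members hold the death members in check, the effectors BAX and BAK1 open the outer mitochondrial membrane once they are released, and BH3-only proteins report damage or lost growth signals by binding the survival members or the effectors. In the epidermis, where keratinocytes leave the basal layer and cornify, BCL-XL and MCL1 are known survival proteins of keratinocytes, and A1, the product of the Bcl2a1 genes, is best known from leukocytes as an NF-κB target.

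The genes described here are 10 members of that family, matched to the count table by their NCBI gene IDs, out of 17943 genes in the table. They are the survival genes Bcl2, Bcl2l1 (BCL-XL), Mcl1 and Bcl2a1b, the effectors Bax and Bak1, and the BH3-only genes Bcl2l11 (BIM), Bbc3 (PUMA), Pmaip1 (NOXA) and Bid. All 10 were among the 16426 genes with a sum of at least 10 counts over the 9 mice. Bulk RNA-Seq of skin covered 5 controls and 4 Supt6-KO animals, with 29627341 to 30967107 estimated counts per mouse. Supt6 encodes SPT6, a histone chaperone and elongation factor of RNA polymerase II. The Supt6-KO mice were K14-CreERT; Supt6 fl/fl and received tamoxifen in the first telogen, so that the Cre acted in keratinocytes that use the keratin 14 promoter, while the controls were Supt6 fl/fl and received corn oil. Both groups therefore carried the floxed allele, and the genotype cannot be told apart from tamoxifen. Skin was taken on day 10 after the last injection, from lesions in the Supt6-KO mice and from a matched site in the controls, so that lesion and genotype cannot be told apart either. The sample labels give wild-type mice and ear, whereas the paper gives Supt6 fl/fl controls and dorsal skin. Levels are given as CPM, the count of a gene as a share of all counts of its mouse, scaled by edgeR's TMM method. Transcripts of 5 cartilage markers, led by Acan, summed to 345 ± 156 CPM in the controls (SD, n = 5) and 33.1 ± 2.41 CPM in the Supt6-KO mice (SD, n = 4), and those of skeletal muscle, led by Acta1, to 3549 ± 489 and 713 ± 118 CPM. Keratinocyte markers were present in every mouse. In bulk skin, fewer cells of a type and less RNA per cell cannot be told apart.

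Supt6 itself was at 74.5, 56.6, 63.6, 91.1 and 96.7 CPM in the controls and at 28.6, 24.1, 21.9 and 28.4 CPM in the Supt6-KO mice. The groups did not overlap, and the log2 fold change was -1.57 (SE 0.18, adjusted p = 1.3e-05, edgeR's quasi-likelihood test, adjusted across all genes tested by the Benjamini-Hochberg method). A correction for the trend of the fold changes on transcript length gave -0.69 (adjusted p = 0.00023, edgeR). One mouse stood apart within its group. Supt6-KO mouse 4 lay at -59.5 on the second principal component, which held 7.76% of the variance, and the other 8 mice lay between -20.1 and 29.5. Its Supt6 level was like that of the other Supt6-KO mice, and values without it are given beside the members that it moved.

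Proteins of the family bind one another through a short helix, the BH3 motif, whose leucine and aspartate contact the groove of the survival proteins. The coding stretches of this motif are shown for 8 of the 10 genes because it is the feature through which they interact. The pattern searched had no match in Bcl2a1b, which says only that these letters are not in its transcript, and Pmaip1 was not searched. They were found in the GENCODE M21 transcripts of GRCm38 (mm10) by a search of the translated reading frames, run 5′ to 3′ on the coding strand, and the capitals mark the leucine and aspartate codons.
Bcl2 (chr1:106712578-106712607, reverse strand, exon 1 of 2): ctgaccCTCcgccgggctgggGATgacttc
Bcl2l1 (chr2:152829700-152829729, reverse strand, exon 2 of 3): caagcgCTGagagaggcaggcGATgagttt
Mcl1 (chr3:95659430-95659459, forward strand, exon 1 of 3): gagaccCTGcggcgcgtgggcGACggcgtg
Bax (chr7:45466000-45466029, reverse strand, exon 3 of 6): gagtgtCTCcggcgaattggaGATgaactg
Bak1 (chr17:27022534-27022563, reverse strand, exon 4 of 6): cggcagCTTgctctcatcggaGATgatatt
Bcl2l11 (chr2:128147144-128147173, forward strand, exon 3 of 4): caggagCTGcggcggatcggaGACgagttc
Bbc3 (chr7:16313767-16313796, forward strand, exon 3 of 4): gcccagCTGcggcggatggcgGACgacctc
Bid (chr6:120897292-120897321, reverse strand, exon 4 of 6): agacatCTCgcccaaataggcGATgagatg
Each stretch has 30 bases, lies within 1 exon and was the only match in its transcript. The counts are per gene, so they do not resolve BCL-XL from the short BCL-XS transcript of Bcl2l1, nor the BIM or MCL1 isoforms.

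Of the 10 genes, Pmaip1, Bcl2a1b, Bax, Bak1 and Mcl1 were higher in Supt6-KO skin, Bcl2l1 was lower, and Bcl2, Bcl2l11, Bbc3 and Bid did not pass the threshold. Thus 5 members were called higher and 1 lower at an adjusted p under 0.05 in edgeR's quasi-likelihood test, in a dataset where 34.1% of all genes tested were called higher and 36.8% lower. The median log2 fold change was 0.23 over the 10 members and -0.07 over all genes. The 2 groups of mice did not overlap, with every Supt6-KO mouse higher, for 5 members, against 28.9% of all genes, and with every Supt6-KO mouse lower for 0 members, against 31.8%. Without Supt6-KO mouse 4 the counts were again 5 and 1. These counts depended on the scaling: TMM factors were 1.20 to 1.31 in the controls and 0.674 to 0.910 in the Supt6-KO mice, and scaling by library totals alone moved the median of all genes to -0.76 and gave 3 members higher and 6 lower.

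**Figure D1:**
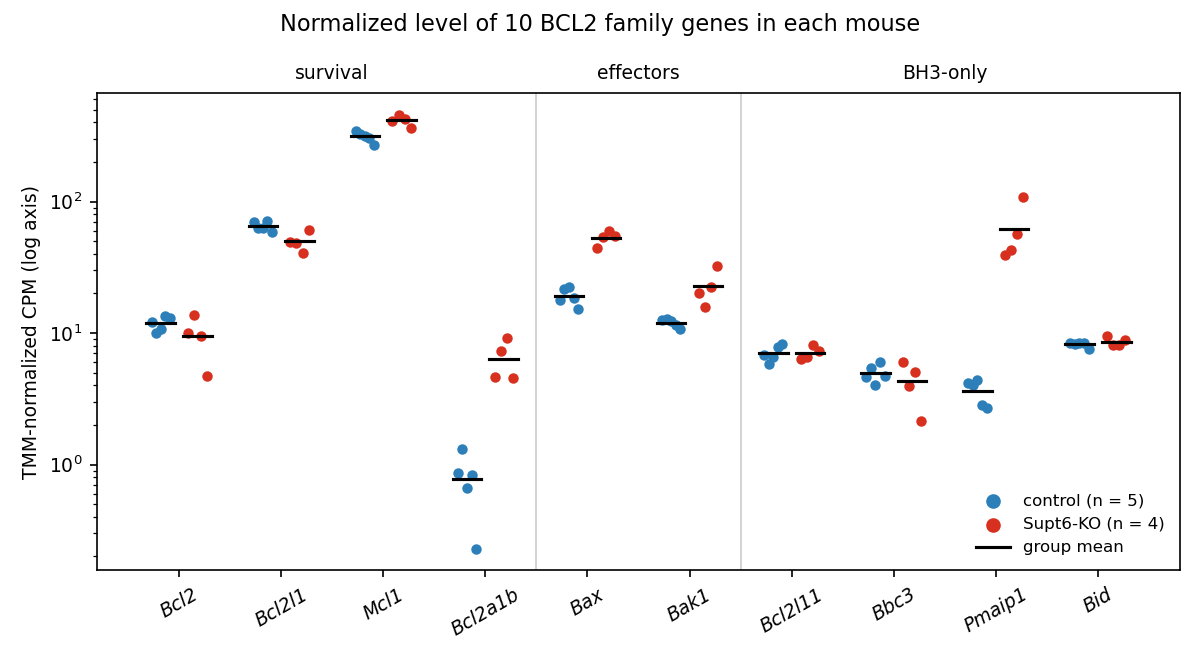
TMM-normalized CPM of the 10 genes on a log axis, 1 point per mouse (control n = 5, Supt6-KO n = 4) with the group mean as a bar, ordered by role. The groups are apart for Mcl1, Bcl2a1b, Bax, Bak1 and Pmaip1, and Supt6-KO mouse 4, the rightmost red point, is lowest for Bcl2 and Bbc3 and highest for Pmaip1 and Bak1.

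Among the survival genes, the most abundant was Mcl1 (NCBI gene 17210, chr3:95656944-95663179), which encodes a short-lived protein that restrains BAK1 and binds NOXA. Its normalized level was 346, 328, 317, 306 and 268 CPM in the controls and 408, 456, 427 and 364 CPM in the Supt6-KO mice. Every Supt6-KO mouse was above every control, by a narrow margin for mouse 4, and the log2 fold change was 0.40 (SE 0.13, adjusted p = 0.014, edgeR's quasi-likelihood test). The deposited counts, before scaling, were 12953, 11984, 11448, 11327 and 10542 in the controls and 9773, 9497, 9338 and 10124 in the Supt6-KO mice, so every Supt6-KO mouse was then below every control. With library totals the log2 fold change was -0.30 (adjusted p = 0.032, edgeR), which is still 0.45 above the median of all genes on that scale, against 0.47 with TMM. The direction of Mcl1 thus depended on the scaling, while its place relative to the median gene did not.

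Bcl2l1 (NCBI gene 12048, chr2:152758732-152833803), which encodes the survival protein BCL-XL, was at 69.3, 62.9, 62.8, 71.6 and 58.6 CPM in the controls and at 49.2, 48.0, 40.8 and 61.0 CPM in the Supt6-KO mice. The first 3 Supt6-KO mice were below all controls and mouse 4 was within their range. The log2 fold change was -0.39 (SE 0.13, adjusted p = 0.018, edgeR's quasi-likelihood test). It was larger without Supt6-KO mouse 4, at -0.50 (adjusted p = 0.0014, edgeR), and missed the threshold without Supt6-KO mouse 3, at -0.31 (adjusted p = 0.054, edgeR).

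Bcl2 (NCBI gene 12043, chr1:106538176-106714290), the founding survival gene, ranged from 9.99 to 13.4 CPM in the controls, with a median of 12.1. In the Supt6-KO mice it was at 10.0, 13.7, 9.47 and 4.71 CPM, with mouse 4 far below the rest. The log2 fold change of -0.33 did not pass the threshold (95% interval -0.88 to 0.23, adjusted p = 0.26, edgeR's quasi-likelihood test), and without mouse 4 it was -0.10. Scaling by library totals called it lower, at -1.08, and a correction for transcript length gave 0.40.

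Bcl2a1b (NCBI gene 12045, chr9:89199273-89207838), 1 of 4 Bcl2a1 genes in the table, rose from a low level. It was at 0.86, 1.31, 0.66, 0.84 and 0.23 CPM in the controls and at 4.64, 7.24, 9.15 and 4.53 CPM in the Supt6-KO mice, from 9.12 to 47.65 and 111.30 to 199.98 estimated counts. The lowest Supt6-KO mouse was more than 3 times as high as the highest control, and the log2 fold change was 3.03 (SE 0.40, adjusted p = 3.8e-05, edgeR's quasi-likelihood test). Only 2.64% of all genes had a higher log2 fold change.

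The value of Bcl2a1b can be separated only in part from those of its copies. The first 90 coding bases of Bcl2a1a, Bcl2a1b and Bcl2a1d are shown, from GENCODE M21 on GRCm38, because the copies are told apart by few bases: capitals mark the 6 positions of this window at which they differ, of 12 such positions in the 516 coding bases.
Bcl2a1a (chr9:88957051-88957140, forward strand, exon 1): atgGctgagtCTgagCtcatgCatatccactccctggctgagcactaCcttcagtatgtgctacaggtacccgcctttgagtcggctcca
Bcl2a1b (chr9:89199360-89199449, forward strand, exon 1): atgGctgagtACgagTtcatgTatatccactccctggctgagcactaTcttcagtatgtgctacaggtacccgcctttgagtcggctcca
Bcl2a1d (chr9:88731630-88731719, reverse strand, exon 1): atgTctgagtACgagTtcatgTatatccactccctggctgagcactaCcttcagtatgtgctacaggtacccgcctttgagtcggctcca
Bcl2a1a and Bcl2a1b were 97.9% identical over these 516 bases, Bcl2a1a and Bcl2a1d 98.6%, and Bcl2a1b and Bcl2a1d 98.8%. In the last pair 30.5% of all windows of 100 bases were the same in both, in Bcl2a1a and Bcl2a1b 28.3%, and in Bcl2a1a and Bcl2a1d 54.0%. RSEM divides reads from such windows by estimate, and the counts of the 3 genes were not whole numbers. Bcl2a1a had a log2 fold change of 3.47 (SE 0.50) and Bcl2a1d of 2.35 (SE 0.29), both called higher by edgeR. Summed into 1 row, the 3 genes had a log2 fold change of 2.81 (SE 0.32, adjusted p = 1.39e-05, edgeR's quasi-likelihood test), from 1.84 ± 0.68 CPM in the controls (SD, n = 5) to 13.0 ± 4.22 CPM in the Supt6-KO mice (SD, n = 4). Bcl2a1c, the remaining copy, had at most 3 counts in any mouse, so no change is read from its fitted values.

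Sums of neutrophil and macrophage markers were higher in the Supt6-KO mice as well, whereas that of T cells was lower and that of mast cells overlapped, and the part of these cells in the rise of the Bcl2a1 genes was not tested. The counts of each list stand beside the 34.1% of all genes called higher and 36.8% lower, or 16.9% and 54.6% with library totals. A list of 12 neutrophil markers summed to 28.0 ± 12.3 CPM in the controls and 4682 ± 1642 CPM in the Supt6-KO mice, and 9 of the 11 tested were called higher and 1 lower. Its most abundant gene, S100a9, which stressed keratinocytes express too, rose from 12.3 ± 7.08 to 2715 ± 895 CPM (SD, n = 5 and 4). Without S100a8 and S100a9, a choice made after the values were seen, the list summed to 7.46 ± 1.83 and 48.4 ± 27.0 CPM. Supt6-KO mouse 3 was the highest in this sum, at 88.2 CPM against 28.7 to 39.7 in the other 3. Others of the list that were called higher included Retnlg, from a mean of 0.21 in the controls to 11.7, 13.4, 53.4 and 4.06 CPM in the Supt6-KO mice. Csf3r rose from 0.50 to 8.47 CPM and Mmp8 from 0.11 to 3.74 CPM, or 7.27 and 2.69 without mouse 3. Ly6g was at 0 to 4 counts in the other 3 Supt6-KO mice and at 15 in mouse 3. Mpo was lower, at 0.35 and 0.01 CPM, Camp did not pass the threshold, and Elane was too low to test. These genes were picked after the values were seen. Macrophage markers, led by Lyz2, summed to 196 ± 56.2 and 854 ± 221 CPM. Of these, 5 of 8 were called higher and 1 lower, or 3 and 1 with library totals. Lyz2 alone was at 92.9 ± 18.5 CPM in the controls and 641 ± 207 CPM in the Supt6-KO mice, so the sum mostly follows this gene. Csf1r was the lower one, at 41.9 ± 12.2 and 11.8 ± 3.17 CPM, and Cd163 and Marco did not pass the threshold. T cell markers, led by Thy1, summed to 113 ± 6.20 and 54.6 ± 15.2 CPM. Of these, 1 of 8 was called higher and 4 lower, or 1 and 6 with library totals. Thy1 alone was at 79.19 CPM in the controls and 42.65 CPM in the Supt6-KO mice, the larger part of both sums. Cd3d, Cd3e and Cd3g were lower too, Cd8a was higher, and Cd2, Cd4 and Lck did not pass the threshold. The mast cell list, led by Mcpt4, summed to 119 ± 40.2 and 130 ± 18.2 CPM, with 2 of 6 called higher and 1 lower, or 1 and 3 with library totals.

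**Figure D2:**
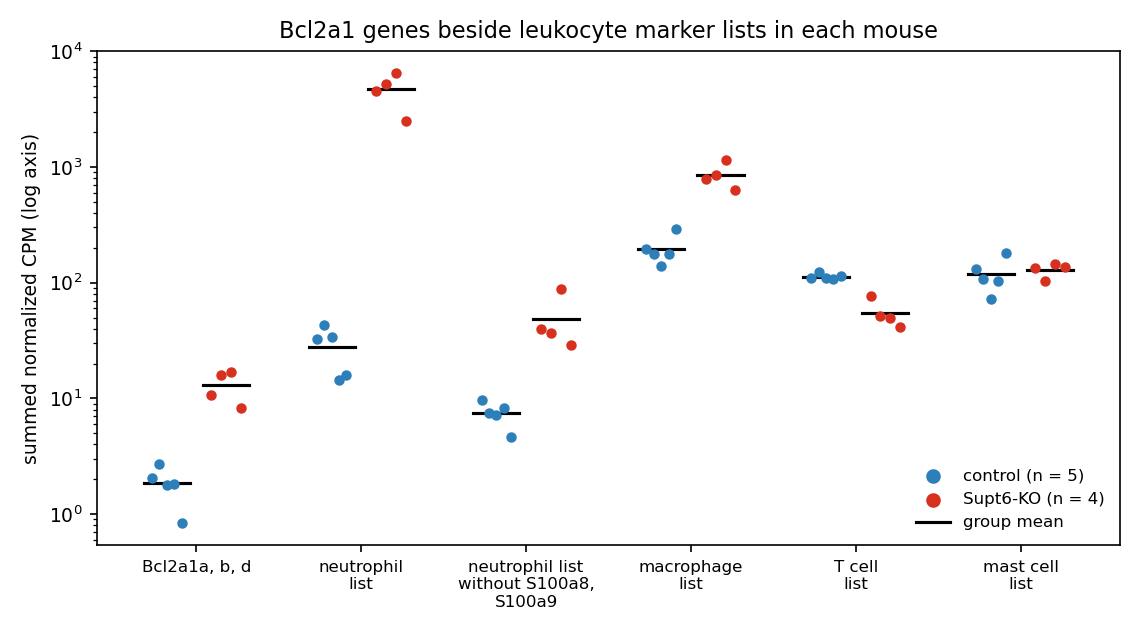
Summed TMM-normalized CPM of Bcl2a1a, Bcl2a1b and Bcl2a1d and of 5 leukocyte marker sums on a log axis, 1 point per mouse (control n = 5, Supt6-KO n = 4) with the group mean as a bar. The Bcl2a1 sum (13.0 against 1.84 CPM), both neutrophil sums and the macrophage sum are higher in every Supt6-KO mouse, the T cell sum is lower in every one, and the mast cell sums overlap.

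Both effectors rose. Bax (NCBI gene 12028, chr7:45461695-45466903), whose product forms the pores of the outer mitochondrial membrane, was at 17.9, 21.4, 22.4, 18.4 and 15.4 CPM in the controls and at 44.5, 53.9, 59.9 and 54.7 CPM in the Supt6-KO mice. The lowest Supt6-KO mouse was about 2 times as high as the highest control. The log2 fold change was 1.48 (SE 0.14, adjusted p = 3.6e-06, edgeR's quasi-likelihood test), and it stayed between 1.41 and 1.56 with any 1 mouse left out.

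Bak1 (NCBI gene 12018, chr17:27019812-27028627), the second pore-forming effector, was at 12.5, 12.7, 12.4, 11.5 and 10.8 CPM in the controls and at 20.1, 15.9, 22.4 and 32.6 CPM in the Supt6-KO mice. The groups did not overlap, and mouse 4 was the highest. The log2 fold change was 0.93 (SE 0.19, adjusted p = 0.00085, edgeR's quasi-likelihood test), or 0.70 without mouse 4 (adjusted p = 0.00052, edgeR). With library totals it was 0.28 and missed the threshold (adjusted p = 0.33, edgeR). Bax kept its call there, at 0.78 (adjusted p = 0.00057, edgeR).

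Of the 4 BH3-only genes, 1 rose and the other 3 did not pass the threshold. Pmaip1 (NCBI gene 58801) encodes NOXA, which binds MCL1 and A1 and targets MCL1 for degradation. It was at 4.17, 4.03, 4.37, 2.84 and 2.70 CPM in the controls and at 39.4, 43.2, 56.9 and 109 CPM in the Supt6-KO mice. All Supt6-KO mice were far above all controls, and mouse 4 was the highest by a wide margin. The log2 fold change was 4.10 (SE 0.31, adjusted p = 1.1e-06, edgeR's quasi-likelihood test), and 1.56% of all genes had a higher one. Without mouse 4 it was 3.68, and with library totals 3.47.

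Bbc3 (NCBI gene 170770, chr7:16308398-16318334) encodes PUMA, which binds all survival members. It was at 4.63, 5.42, 4.01, 6.06 and 4.74 CPM in the controls and at 6.02, 3.98, 5.03 and 2.15 CPM in the Supt6-KO mice. The groups overlapped, and only mouse 4 was well below the controls. The log2 fold change was -0.21 (95% interval -0.80 to 0.37, adjusted p = 0.49, edgeR's quasi-likelihood test), and 0.01 without mouse 4. The length correction gave -0.91 and called it lower. That value rests on a median transcript of 485 bases, whereas the longest has 1814.

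Bcl2l11 (NCBI gene 12125, chr2:128126038-128162547) encodes BIM, a sensor of lost growth factor and adhesion signals. It had a mean of 7.07 ± 0.98 CPM in the controls (SD, n = 5) and 7.05 ± 0.78 CPM in the Supt6-KO mice (SD, n = 4). Its 95% interval of -0.35 to 0.34 on the log2 scale leaves out a change of 2-fold in either direction. Bid (NCBI gene 12122, chr6:120893119-120917062), which caspase-8 cleaves to link death receptors to mitochondria, was at 8.24 ± 0.36 and 8.59 ± 0.67 CPM, with a 95% interval of -0.22 to 0.34. The length correction put Bid at -0.34 and called it lower (adjusted p = 0.030, edgeR). With library totals, which shift all genes downward, both were called lower, at -0.70 and -0.63.

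Bax, Bbc3 and Pmaip1 are also known p53 targets. They took different courses, with log2 fold changes of 1.48, -0.21 and 4.10, while the level of Trp53 itself, which encodes p53, fell by 0.87 on the log2 scale (SE 0.25, adjusted p = 0.0091, edgeR's quasi-likelihood test). Trp53 was at 32.1, 17.8, 23.7 and 52.6 CPM in the Supt6-KO mice and between 54.0 and 60.4 CPM in the controls, so that mouse 4 was just under the lowest control. Trp53 was picked for this comparison after its values were seen, and the part of p53 in the members' values was not tested.

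**Figure D3:**
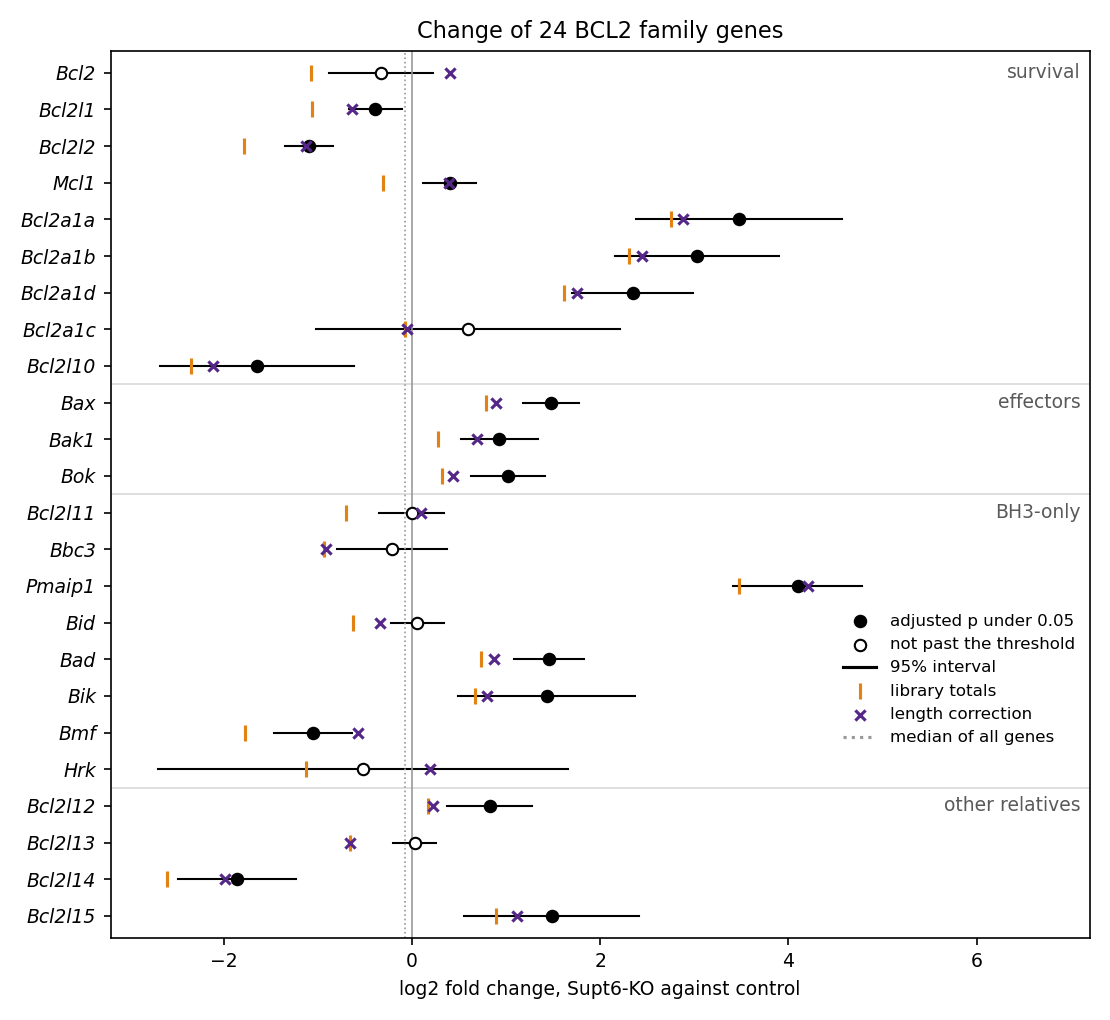
Log2 fold change of the 10 genes and 14 relatives in Supt6-KO against control skin (TMM, circles with 95% intervals, filled where the adjusted p is under 0.05), with the values under library totals (orange bars) and a length correction (purple crosses). Pmaip1 (4.10), Bcl2a1a, Bcl2a1b and Bcl2a1d stay far to the right of 0 under all 3, while Mcl1 (0.40 with TMM) crosses 0 under library totals and Bcl2 under the length correction.

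Levels of different genes were compared per kilobase of transcript, using the median length of each gene's protein-coding GENCODE transcripts. In the controls Mcl1 was the highest, at 147 ± 13.6 CPM per kilobase (SD, n = 5), followed by Bcl2l1 at 39.8 ± 3.26 and Bax at 23.9 ± 3.53. Bbc3 at 10.3 ± 1.62, Bak1 at 7.27 ± 0.47 and Bid at 6.05 ± 0.26 followed. At the low end were Bcl2l11 at 2.84 ± 0.39 and Bcl2 at 2.36 ± 0.29, which lay within about 1 SD of each other, then Pmaip1 at 1.43 ± 0.31 and Bcl2a1b at 0.96 ± 0.48, which did so too. The place of Bbc3 rests on the length used, with a median of 485 bases and a longest transcript of 1814, which gives 2.74 CPM per kilobase. In the authors' TPM values, deposited for the 5 controls and Supt6-KO mouse 4, the control means were 156 for Mcl1, 54.9 for Bax, 47.4 for Bcl2l1, 11.2 for Bak1, 8.30 for Bid and 4.78 for Bbc3. TPM of Bcl2, Bcl2l11, Bcl2a1b and Pmaip1 lay between 2.42 and 2.83. Mcl1 was thus the highest in every version, and the order of Bax and Bcl2l1 differed between them.

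In the Supt6-KO mice Pmaip1 moved from the lowest to the highest mean of the 4 BH3-only genes, at 24.5 ± 12.7 CPM per kilobase (SD, n = 4), beside 8.86 ± 3.41 for Bbc3, 6.31 ± 0.49 for Bid and 2.83 ± 0.31 for Bcl2l11. With the longest transcripts the means were 22.8, 2.37, 3.92 and 1.40. Bad, a BH3-only gene outside these 4, had a higher mean than Pmaip1 in both groups. It was at 31.4 ± 4.99 CPM per kilobase in the controls and 86.0 ± 18.4 in the Supt6-KO mice. With the longest transcripts the means of Bad were 17.7 and 48.5. Bcl2a1b reached 7.82 ± 2.73 and passed Bcl2 at 1.89 ± 0.73, but stayed far under Bcl2l1 at 30.5 ± 5.12 and Mcl1 at 194 ± 18.1.

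Ratios between 2 genes of the same mouse do not depend on the scaling between mice. The ratio of Bax to Bcl2l1, per kilobase, was 0.53, 0.69, 0.73, 0.53 and 0.53 in the controls and 1.84, 2.29, 2.99 and 1.83 in the Supt6-KO mice. The groups did not overlap. Which gene of the pair was higher in the controls depended on the lengths used, since in the authors' TPM Bax was above Bcl2l1 in all 5 controls. The ratio of Bax to Bcl2 was 10.4 ± 2.74 in the controls and 41.2 ± 22.0 in the Supt6-KO mice, and that of Bak1 to Bcl2l1 0.18 ± 0.02 and 0.45 ± 0.10, both without overlap. Ratios of genes of unlike length move with the length trend described further on, and by the fitted values the log2 change of Bax to Bcl2 was 1.80, but 0.49 with the length correction. That of Bax to Bcl2l1 was 1.86 and 1.53, that of Bak1 to Bcl2l1 1.32 with or without the correction, and that of Pmaip1 to Mcl1 3.70 and 3.81. The ratio of Pmaip1 to Mcl1, the transcripts of NOXA and of the survival protein that NOXA binds, was 0.010, 0.010, 0.012, 0.0078 and 0.0085 in the controls and 0.081, 0.080, 0.11 and 0.25 in the Supt6-KO mice. Mcl1 transcripts outnumbered those of Pmaip1 in all mice, and by the least in mouse 4. Mcl1 to Bcl2l1 was 3.69 ± 0.29 and 6.54 ± 1.48, also without overlap. Bcl2l11 to Mcl1 and Bbc3 to Bcl2l1 overlapped between the groups.

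**Figure D4:**
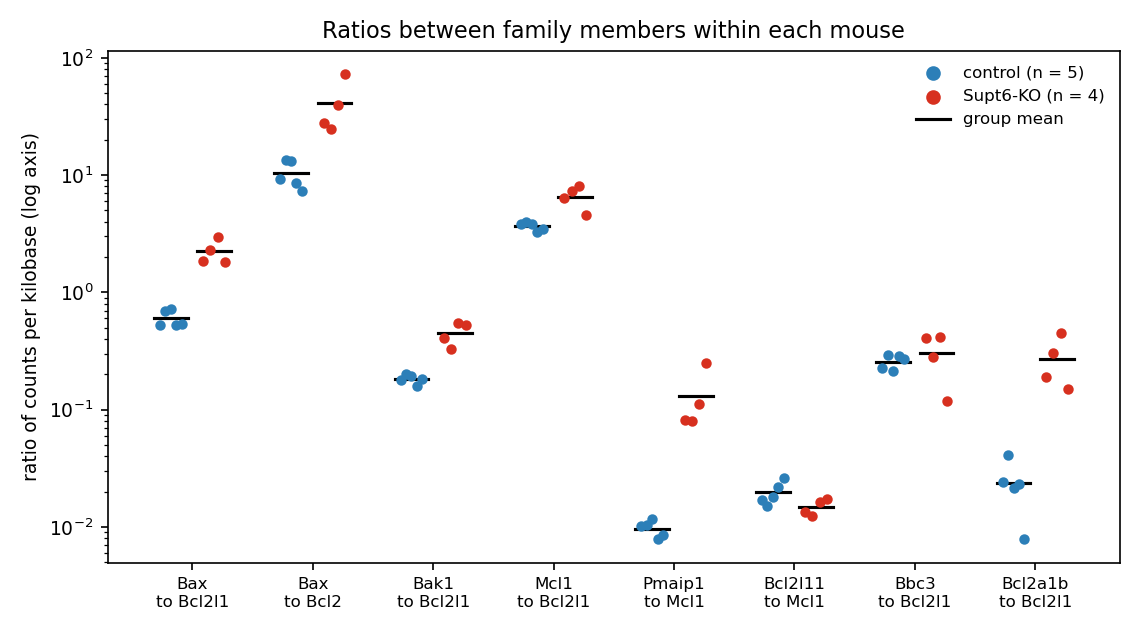
Ratios of counts per kilobase between 2 family members within each mouse, on a log axis (control n = 5, Supt6-KO n = 4, bars are group means). The ratio of Bax to Bcl2l1 lies between 0.53 and 0.73 in the controls and between 1.83 and 2.99 in the Supt6-KO mice, whereas the ratios of Bcl2l11 to Mcl1 and Bbc3 to Bcl2l1 overlap.

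Summed by role, per kilobase, the 4 survival genes were at 190 ± 15.9 CPM in the controls and 234 ± 16.8 in the Supt6-KO mice. The 2 effectors were at 31.1 ± 3.91 and 80.3 ± 9.91, and the 4 BH3-only genes at 20.6 ± 1.57 and 42.5 ± 10.1 (SD, n = 5 and 4 throughout). Within a mouse, the sum of the effectors was 0.16 ± 0.02 of that of the survival genes in the controls and 0.35 ± 0.06 in the Supt6-KO mice, 2.10 times as much, and 2.08 times with the longest transcripts. The BH3-only sum rose relative to the survival sum by 1.69 times, or 2.68 times with the longest transcripts, and without overlap either way. These sums of RNA are dominated by single genes: Mcl1 made up 77.2% of the survival sum in the controls and 82.7% in the Supt6-KO mice, and Bax 76.5% and 82.9% of the effector sum. Pmaip1 made up 7.02% and 55.3% of the BH3-only sum. The other 3 genes of that sum together overlapped between the groups. They held 17.2 to 21.8 CPM per kilobase over the 5 controls and 13.8 to 21.9 over the 4 Supt6-KO mice. The direction of Mcl1, the bulk of the survival sum, depended on the scaling. All sums hold the 10 genes only. They leave out the BH3-only gene Bad, at 31.4 ± 4.99 and 86.0 ± 18.4 CPM per kilobase, above the BH3-only sum in both groups. They also leave out Bok, an effector relative, at 102 ± 23.5 and 207 ± 24.3 CPM per kilobase, above the effector sum in both groups. The survival gene Bcl2l2, at 28.1 ± 1.54 and 13.2 ± 1.80, is outside them too. How the sums and ratios would change with the other family genes was not tested.

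The other 14 genes of the family in the table gave 7 called higher and 4 lower, with a median log2 fold change of 0.71, and 3 higher and 5 lower with library totals, at a median of 0.05. Beside these counts, as for the lists that follow, stand the 34.1% of all genes called higher and 36.8% lower, or 16.9% and 54.6% with library totals, at medians of -0.07 and -0.76. Besides Bcl2a1a and Bcl2a1d, the higher ones were Bad at 1.45 (SE 0.17), a BH3-only gene under the control of growth factor kinases, Bik at 1.43 (SE 0.43), a BH3-only gene of the endoplasmic reticulum, Bok at 1.02 (SE 0.18), an effector relative of Bax and Bak1, Bcl2l15 at 1.48 (SE 0.43) and Bcl2l12 at 0.83 (SE 0.21). With library totals these 5 kept their direction, and Bad alone among them its call. With the length correction Bik, at 0.80 (adjusted p = 0.097, edgeR), and Bcl2l12, at 0.22 (adjusted p = 0.41, edgeR), lost theirs, and Bad was at 0.87. Bcl2l15 and Bcl2l12 were highest in Supt6-KO mouse 4, and without it Bcl2l15 was at 0.80. The lower ones were Bcl2l2 at -1.09 (SE 0.11), which encodes the survival protein BCL-W, Bmf at -1.05 (SE 0.19), a BH3-only gene linked to loss of adhesion, Bcl2l10 at -1.64 (SE 0.47), from 12 to 29 counts in the controls to 2 to 6 in the Supt6-KO mice, and Bcl2l14 at -1.86 (SE 0.28). These 4 were called lower with library totals as well. Bcl2l13, a mitophagy receptor, was at 117 ± 6.81 and 119 ± 9.08 CPM and did not pass the threshold. It was called lower at -0.65 both with library totals (adjusted p = 0.0015, edgeR) and with the length correction (adjusted p = 0.0012, edgeR). The corrected value rests on a median transcript of 408 bases, whereas the longest has 6925. Hrk, a largely neuronal BH3-only gene with at most 6 counts in any mouse, did not pass the threshold either.

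Bcl2l2 was below Bcl2l1 in the controls, at 28.1 ± 1.54 against 39.8 ± 3.26 CPM per kilobase, or 15.3 against 25.3 with the longest transcripts. Before division by length, Bcl2l2 was at 58.3 ± 3.19 CPM and Bcl2l1 at 65.1 ± 5.32 CPM. The level of Bcl2l2 was 32.8, 24.7, 25.3 and 26.6 CPM in the Supt6-KO mice, all under the lowest control at 54.5 CPM. The ratio of Bax to Bcl2l2 was 0.85 ± 0.13 in the controls and 5.16 ± 1.15 in the Supt6-KO mice.

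Downstream of the pore, 6 of 12 genes of the apoptosome and the caspases were called higher and 3 lower, with a median log2 fold change of 0.57. With library totals the counts were 4 and 5 and the median -0.11. Endog, a nuclease of the space between the mitochondrial membranes, was at 1.53 (SE 0.16), Cycs, which encodes cytochrome c, at 1.49 (SE 0.19), and Dffb, the nuclease that cuts DNA in apoptosis, at 1.36 (SE 0.13). These 3 were called with library totals too, at 0.67 to 0.84. Casp9, the initiator caspase of the apoptosome, was lower at -0.96 (SE 0.12), and Apaf1, its platform, was at 0.41 and did not pass the threshold (adjusted p = 0.063, edgeR's quasi-likelihood test), whereas the length correction gave 1.13 and called it higher. These 2 were added after the values were seen.

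Of 7 inhibitor of apoptosis genes and their antagonists, 5 were called higher and 1 lower, with a median of 0.48, and with library totals 2 and 2, with a median of -0.22. Birc5 (survivin), better known for its role in mitosis, had the largest change of this list, at 2.98 (SE 0.35). Its level was 30.29, 36.17, 59.05 and 120.9 CPM in the Supt6-KO mice, with mouse 4 the highest. With any 1 mouse left out, its log2 fold change ranged from 2.42 to 3.21. The antagonists Diablo, at 1.05 (SE 0.13), and Htra2, at 0.95 (SE 0.15), rose, and Birc6, a giant ubiquitin ligase, fell by 0.96 on the log2 scale (SE 0.16). With library totals Htra2 lost its call, and with the length correction Birc6 was at 0.08 and Diablo at 0.45.

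In the death receptor pathway, 8 of 11 genes were called higher and 0 lower, with a median of 0.75. The 4 with the largest change at 1 CPM or more were Mlkl, the executioner of necroptosis, at 2.14 (SE 0.31), the adaptor Tradd at 1.29 (SE 0.14), the kinase Ripk3 at 1.13 (SE 0.35) and the ligand Tnfsf10 (TRAIL) at 0.76 (SE 0.25). Without Supt6-KO mouse 3 the count was 5 in place of 8, and with library totals 3 were called higher and 3 lower, at a median of 0.02. Tnfsf10 then stood at 0.02 and lost its call, as did Ripk3. Ripk3 was at 5.31, 4.03, 6.59 and 16.02 CPM in the Supt6-KO mice, and without mouse 4 its log2 fold change was 0.53 (adjusted p = 0.028, edgeR). Tnfsf10 missed the threshold without Supt6-KO mouse 2 or 3, at 0.65 and 0.62.

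The list of 18 regulators of the family had 4 called higher and 9 lower and a median of -0.44, and with library totals 2 and 11 and -1.14. How the lists differ from each other or from all genes was not tested. Foxo1, a transcription factor that drives Bcl2l11 and Bbc3 in other settings, fell by 2.71 on the log2 scale (SE 0.21), or by 1.68 with the length correction, and Dynll2, the dynein light chain that tethers BMF, fell by 1.27 (SE 0.10). Dynll1, the light chain that tethers BIM, rose by 1.88 (SE 0.17), and Atf4, the stress factor upstream of Pmaip1 in the integrated stress response, rose by 1.61 (SE 0.17). All 4 kept their direction and call with library totals. Among 12 p53 targets outside the family, 6 were called higher and 2 lower, with a median of 0.57, and with library totals 3 and 4, with a median of -0.05. Perp, a desmosome protein of the epidermis, was at 1.55 (SE 0.24), Eda2r, a receptor, at 1.48 (SE 0.20), and Zmat3 at -1.07 (SE 0.15), where the length correction gave -0.11. Mdm2, the ligase that degrades p53, rose from 48.6 ± 8.25 to 120 ± 18.8 CPM (SD, n = 5 and 4).

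**Figure D5:**
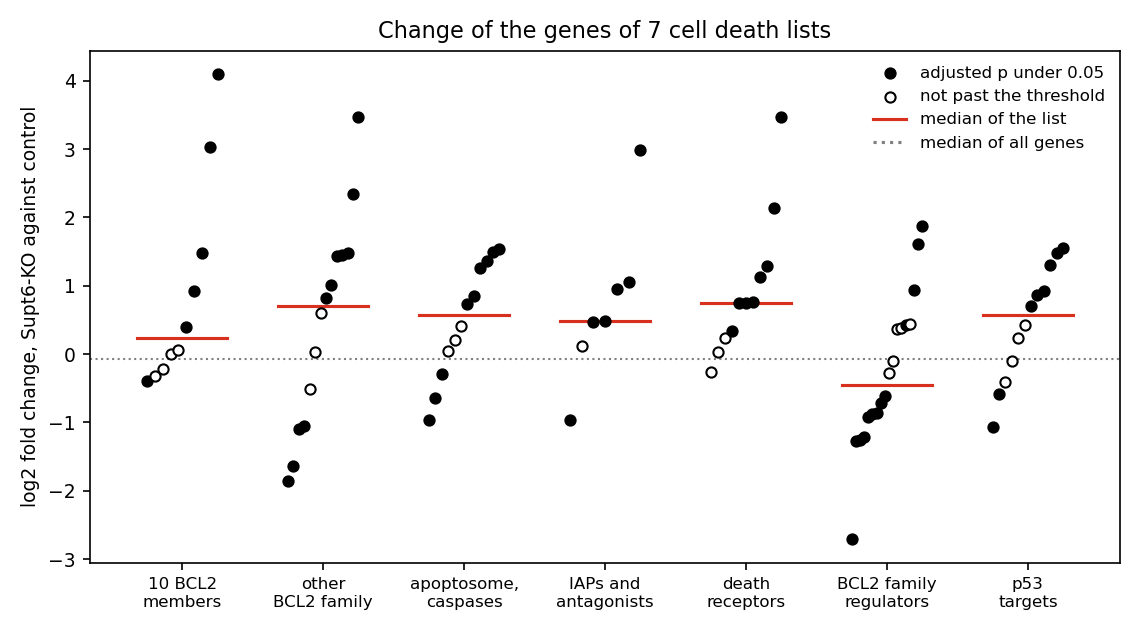
Log2 fold change (Supt6-KO against control, TMM) of the genes of 7 lists, 1 point per gene in order of its value, filled where the adjusted p is under 0.05, with the median of each list in red and that of all genes (-0.07) dotted. The 10 members spread from -0.39 to 4.10, the death receptor list (median 0.75) has no filled point below 0, and the regulators (median -0.44) have 9.

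Transcript length and cell content also moved with the groups. Log2 fold changes fell by 1.48 per 10-fold longer transcript over 16360 genes, with a median of 0.60 for transcripts of up to 1 kb and -0.84 for those over 4 kb. The median transcript was 801 bases for Bax, 817 for Bcl2a1b, 2534 for Pmaip1 and 5016 for Bcl2. After the length correction Bax was at 0.89, Bcl2a1b at 2.44, Bak1 at 0.69, Mcl1 at 0.40 and Pmaip1 at 4.21, all still called higher, and Bcl2l1 at -0.63, still lower. Of the keratinocyte lists, the suprabasal one, led by Krt10 in the controls, had 4 of 7 genes called higher and 0 lower, or 4 and 3 with library totals, and summed to 23340 ± 936 CPM in the controls and 64750 ± 23860 CPM in the Supt6-KO mice. The basal one summed to 12130 ± 688 and 8831 ± 3673 CPM and had 0 of 7 higher and 6 lower, among them Krt5 at 4631 ± 202 and 2544 ± 849 CPM. Krt14, its most abundant gene over the 9 mice, was at 3379 ± 304 and 5355 ± 2915 CPM, with Supt6-KO mouse 4 at 9613 CPM, and did not pass the threshold (adjusted p = 0.063, edgeR). DESeq2 called Krt14 higher, at a log2 fold change of 0.72 (adjusted p = 0.015, DESeq2). Without Supt6-KO mouse 2, edgeR called 1 of the 7 basal genes higher. Markers of the hair follicle, led by Krt71, fell in all 7 genes, from a sum of 499 ± 578 to 5.56 ± 1.08 CPM. The controls were far apart in this sum, at 1475, 151, 531, 314 and 24.7 CPM, and their mean was 255 without mouse 1. The part of length and of these cell types in the members' values was not tested.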

How the data were processed

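RNA-Seq libraries of mouse skin from 5 controls and 4 Supt6-KO mice were analysed. The estimated counts per gene that the authors deposited were made with RSEM 1.3.1 after alignment to mm10 with Bowtie2 2.3.4.3, per the paper's methods. The submitters' processing notes list HISAT beside Bowtie2, and DESeq2 1.4.5, without saying which step used which aligner. The TPM values that the authors deposited, for 6 of the 9 mice, were used only to describe levels. The annotation release and the strand setting are not given in the sources used here, so overlapping antisense reads could not be told apart. Of the estimated counts, 9.00% were not whole, and all were rounded.

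Genes with a sum of at least 10 counts were tested with edgeR 4.0.16 (R 4.3.3), using TMM factors, the quasi-likelihood test without covariates and Benjamini-Hochberg adjustment. The SE is the absolute log2 fold change divided by the square root of F. A value of 3 counts, 0.0764 to 0.144 CPM depending on the mouse, was taken as the floor, which covers counting error only. As alternatives, DESeq2 1.42.0 replaced edgeR, library totals or upper-quartile factors replaced TMM, and the fit was repeated with the removal of the 50 most abundant genes, other filters, a replicate block, a length correction, each mouse left out, longest transcripts, and the sum of 3 Bcl2a1 genes, the last chosen after seeing the data. The code was tested on simulated data.

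Of the gene IDs, 17519 matched RefSeq genes of GRCm38, and lengths and sequences were from GENCODE M21. The 10 genes and all lists were chosen with earlier results of these data known. Named were all genes of the family, the 4 called genes with the largest change at 1 CPM or more of each pathway list, the most abundant gene of each marker list described, and up to 3 genes most alike each member over the 9 mice. Lists for fibroblasts, endothelium, adipocytes and melanocytes were counted as well. The results for 1 gene of the apoptosome list and for the B cell list are not reported here. Whether each replicate was a separate mouse follows from the sample titles. Single-cell, ChIP-Seq and RT-qPCR data were not analysed here. Python 3.11.15 with pandas 2.3.3 was used for tables.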

Additional observations from a re-analysis of the deposited data

Results flagged for a closer look

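Normalized CPM of Supt6, the 10 members and their 14 relatives, and the ratios between family members, were screened for single mice far from the rest of their group, by Dixon's test in 72 groups, of which 3.6 would be marked by chance and 4 were. Bid was at 7.61 CPM in control mouse 5, below a group median of 8.38. Bcl2l10 was at 0.80 CPM in control mouse 3, above a median of 0.44. Bcl2l12 was at 9.59 CPM in Supt6-KO mouse 4, above a median of 5.81. Hrk was at 0.18 CPM in the same mouse, from 5 counts, and at 0 in the other 3 Supt6-KO mice.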

How the results depend on the processing

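Over the log2 fold changes of the 10 members, 159 of the 180 values under other settings, the sum of 3 Bcl2a1 genes included, kept their direction and their side of the threshold. Pmaip1, Bcl2a1b and Bax did so under every setting in which they were tested, and Bcl2a1b could not be tested with at least 10 counts in every mouse. Library totals, which lower all Supt6-KO values, gave 2771 genes higher and 8970 lower in place of 5608 and 6050 (at least 2-fold, 1470 and 6802), 3 members higher and 6 lower, and 17 and 30 of the 73 genes of the 6 pathway lists in place of 36 and 19. Under them Bcl2 was at -1.08, Bcl2l11 at -0.70, Bbc3 at -0.94, Bid at -0.63, Mcl1 at -0.30, Bak1 at 0.28, Bcl2a1c at -0.075 and Bcl2l13 at -0.65. The length correction gave 3 members lower, Bcl2 at 0.40, Bcl2l11 at 0.10, Bbc3 at -0.91, Bid at -0.34, Bcl2a1c at -0.055, Hrk at 0.19 and Bcl2l13 at -0.65. It used median transcripts of 485 bases for Bbc3 and 408 for Bcl2l13, whose longest transcripts have 1814 and 6925. Values near 0 changed sign for Bcl2l11 with DESeq2 (0.061), without the 50 most abundant genes (0.00325) and with filterByExpr (0.00696), for Bid with upper-quartile factors (-0.026), and for Bcl2l13 with those factors (-0.055) and with 10 counts in every mouse (-0.021). With the longest transcripts Pmaip1 was 0.98 of Bcl2l11 in the controls, in place of 0.52. The cause of these differences was not tested.

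With 1 mouse left out, members called lower ranged from 0 to 1, Bcl2l1 from -0.50 to -0.31, Bcl2l11 from -0.077 to 0.057, Bbc3 from -0.42 to 0.0066 and Bcl2l13 from -0.0060 to 0.063. Without Supt6-KO mouse 3, Bcl2l1 lost its call, and without mouse 4 Hrk gained one at an adjusted p of 0.032 from edgeR. The titles number the mice, and same-numbered deviations correlated at 0.01, 0.23, 0.22 and 0.07, so the numbers were not taken as pairs. With the replicate block over 4 mice a group, 5271 genes were called higher, 5 members higher and 1 lower, Bcl2l11 was at 0.058 and Bcl2l13 at -0.0063, and no member changed its call. Depth limits Bcl2a1c and Hrk, which were at or near the floor.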

Other observations

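The genes whose log2(CPM + 0.5) followed a member most closely over the 9 mice were taken from 9538 genes with a mean of at least 10 CPM. The mice form 2 groups and share their scaling, so Pearson's r is a description and mostly reflects the difference between the groups for the members that changed. Pmaip1 was most like Fam83a (r = 0.9985), Cmas and Mrto4, whose log2 fold changes were 3.07, 1.67 and 2.21. Bax was most like Lsm5 (r = 0.9996), Naa10 and Gadd45gip1, which rose by 2.18, 1.49 and 1.58. Bak1 was most like Pkn2 (r = 0.9920), Dmtf1 and Tmem97. Mcl1 was most like Cxadr (r = 0.9836), Nfkbiz, a nuclear NF-κB cofactor, and Tec, at 0.71, 1.17 and 1.01. Bcl2a1b was most like Slc37a4 (r = 0.9947), Hopx and Anapc16. The minimum of 10 CPM left most neutrophil markers out of this search. The gene most like Bcl2 was Abcd3 (r = 0.9778), that most like Bcl2l1 was Smarcd2 (0.9683), and those most like Bid, Bbc3 and Bcl2l11 were Gltp (0.9689), Neu3 (0.9477) and Pigk (0.9208).

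Of 6 fibroblast markers, led by Col3a1, 4 were called lower and 0 higher, or 6 and 0 with library totals. Of 6 endothelial markers, led by Pecam1, 5 were lower and 1 higher, or 5 and 0 with library totals. Of 6 adipocyte markers, led by Fabp4, 4 were lower, or 5 with library totals. All 5 melanocyte markers, led by Dct, were called higher, from a sum of 54.6 ± 9.04 CPM in the controls to 145 ± 32.5 CPM in the Supt6-KO mice (SD, n = 5 and 4), but with library totals 3 of the 5 were.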
